A study of Mus musculus with 39 samples.

Results

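The expression of 10 genes of apelin signaling and of the shared progenitors of blood and endothelium was read in mouse epiblasts with and without *Stat3*. The genes are *Apela* and *Apln*, which encode the ligands of the apelin receptor, the receptor gene *Aplnr*, the receptor genes of vascular endothelial growth factor (VEGF) *Kdr* and *Flt1*, the transcription factor genes *Etv2*, *Tal1*, *Lmo2* and *Gata2*, and the adhesion gene *Pecam1*. They are 10 of the 47643 genes listed in each count table, and all 10 were found by symbol. They were chosen by name with earlier results of these epiblasts in view, among them a higher *Apela* level in E7.5 null than in E6.5 WT epiblasts, so that contrast is given below without a test.

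Each of the 35 epiblast libraries held RNA of 1 epiblast of a CD1 embryo from *Stat3* het intercrosses, dissected by hand away from extraembryonic ectoderm and visceral endoderm at embryonic day (E) 5.5, 6.5 or 7.5. In the null allele a neomycin resistance gene takes the place of exons 20 to 22, in every tissue of the embryo, and genotype was read from extraembryonic tissue. WT epiblasts numbered 2 at E5.5, 9 at E6.5 and 9 at E7.5, and null epiblasts 4, 8 and 3. A further 4 libraries came from epiblast stem cell (EpiSC) lines, null lines 2 and 6 and WT lines 8 and 13, which are self-renewing cultures started from single epiblasts and kept in FGF2, activin A and a tankyrase inhibitor. No treatment other than the genotype was applied.

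APELA and apelin are secreted peptides that act on the same G protein-coupled receptor, APLNR, which nascent mesoderm and later endothelium carry. As mesoderm leaves the primitive streak, part of it switches on KDR, the main signaling receptor for VEGF-A, and ETV2, an ETS factor that starts the blood and endothelial programs; TAL1, LMO2 and GATA2 then act together in blood and endothelial progenitors. FLT1 binds VEGF-A more tightly than KDR and limits its action, and PECAM1 is an adhesion molecule of endothelial junctions that pluripotent cells also make.

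Promoters of 4 of the genes are shown because the results turn on them: *Kdr* and *Etv2*, a receptor and a factor that open the progenitor program, and *Apela* and *Flt1*, the genes that differed by genotype in EpiSCs. Each is the 250 bases before the start of the gene (RefSeq, GRCm38.p6), 5′ to 3′ on the strand of the gene, which is the minus strand for all 4. They lie at chr8:65037337-65037586 (*Apela*), chr5:147726012-147726261 (*Flt1*), chr5:75978456-75978705 (*Kdr*) and chr7:30635853-30636102 (*Etv2*). Capitals mark AGGAAG, the core letters bound by ETS factors such as ETV2, on either strand.
Apela: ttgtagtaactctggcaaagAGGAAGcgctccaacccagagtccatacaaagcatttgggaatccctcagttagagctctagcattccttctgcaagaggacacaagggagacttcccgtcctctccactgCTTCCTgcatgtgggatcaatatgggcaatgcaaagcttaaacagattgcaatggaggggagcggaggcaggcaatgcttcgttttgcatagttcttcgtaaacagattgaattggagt
Flt1: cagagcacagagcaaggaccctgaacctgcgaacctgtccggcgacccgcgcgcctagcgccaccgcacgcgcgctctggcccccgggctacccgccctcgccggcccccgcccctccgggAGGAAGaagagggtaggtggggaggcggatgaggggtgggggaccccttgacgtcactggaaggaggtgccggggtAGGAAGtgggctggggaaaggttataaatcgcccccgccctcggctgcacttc
Kdr: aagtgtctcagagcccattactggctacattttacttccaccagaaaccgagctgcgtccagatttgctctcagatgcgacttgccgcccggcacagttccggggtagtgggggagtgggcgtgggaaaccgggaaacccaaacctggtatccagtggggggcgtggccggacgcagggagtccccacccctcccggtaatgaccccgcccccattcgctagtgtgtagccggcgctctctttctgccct
Etv2: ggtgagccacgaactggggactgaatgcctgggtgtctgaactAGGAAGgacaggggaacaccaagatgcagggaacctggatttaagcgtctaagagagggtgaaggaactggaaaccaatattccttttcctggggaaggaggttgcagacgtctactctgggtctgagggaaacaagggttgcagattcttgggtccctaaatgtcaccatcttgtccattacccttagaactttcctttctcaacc
The AGGAAG letters occur 2 times in the *Apela* window, 2 times in *Flt1*, 1 time in *Etv2*, and were not found in *Kdr*. Of 32851 promoter windows of the same length, 29.5% hold AGGAAG. The STAT letters TTCNNNGAA, searched on both strands, were found in none of the 4 windows and occur in 7.02% of all windows. AGATAA, the letters of GATA factors (9.99% of windows), and CAGCTG, an E-box (13% of windows), were found in none of the 4 either. None of the matches overlapped another. A match is a description of letters, and nothing was read from it about binding.

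Total counts ran from 22941210 to 79013960 per epiblast library and from 63445877 to 127583699 per EpiSC library, and levels are CPM, counts scaled to 1000000 per library after adjusting library sizes by the trimmed mean of M values (TMM). A gene listed at 0 in an epiblast may still have had up to 3 counts, or 0.0399 to 0.130 CPM by library, for counting error alone. *Stat3* itself was counted at 1.24 to 1.503 CPM in E7.5 null against 4.69 to 24.7 in E7.5 WT epiblasts, at 9.47 to 22.6 against 38.6 to 51.1 at E5.5, and at 1.42 to 7.99 against 5.62 to 28.6 at E6.5, where the groups overlap; reads on exons outside the deletion still count. 4 libraries stood apart. In E5.5 null epiblast 1 *Pou5f1*, the defining gene of the epiblast, was at 0.673 CPM against 100 to 288 in the other E5.5 libraries. E6.5 null epiblast 1 held 708 CPM of 8 summed extraembryonic ectoderm markers against at most 35.5 in the other E6.5 nulls, E6.5 WT epiblast 3 held 5323 CPM of 10 visceral endoderm markers against at most 1506 in the other E6.5 WT, and E7.5 WT epiblast 3 held 6120 CPM of 8 epiblast genes against at most 3051 in the other E7.5 WT epiblasts. The E6.5 nulls were uneven in other ways too, in libraries not counted among the 4. Null epiblasts 3, 4 and 8 held 6143, 4337 and 3967 CPM of the visceral endoderm markers. Null epiblasts 2 and 3 had 15531 and 15171 genes with counts, against 19178 to 21616 in the other E6.5 nulls. Some of the results that rest on the 4 libraries are given with and without them.

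Between E6.5 and E7.5, WT epiblasts raised *Aplnr*, *Kdr*, *Apela*, *Lmo2* and *Gata2*. All 5 were called: in the quasi-likelihood test of edgeR their log2 fold change exceeded 1 in size and their p, adjusted over all genes by Benjamini-Hochberg, was under 0.05. That is 5 of 10 genes tested, all higher, where 8.83% of the 17191 genes tested were called in either direction and 5.74% were called higher. The median log2 fold change of the 10 was 2.40 and that of all genes 0.0066. In bulk samples a larger share of cells of a type and more RNA per cell cannot be told apart. With sample quality weights in limma *Kdr* (9.44 ± 4.46, adjusted p = 0.0957) and *Gata2* (2.99 ± 1.20, adjusted p = 0.0514) were not called, and *Lmo2*, *Etv2*, *Aplnr* and *Apela* were. Markers of other tissues moved with stage as well. All 10 visceral endoderm markers had a higher mean at E7.5, *Ttr* and *Rbp4* were called, and the median of their sum went from 158 to 1542 CPM. The sum of 6 markers of extraembryonic mesoderm and allantois had a median of 7.75 CPM at E6.5 and 132 at E7.5, with *Ahnak* called of the 2 tested. The part of these tissues in the stage differences was not tested.

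Of the ligands, *Apela* was low at the earlier stages, with 0.467 and 1.62 CPM in the E5.5 WT epiblasts and 0.609 to 1.95 (median 1.06) in the 9 E6.5 WT. At E7.5 it reached 12.5 to 25.1 CPM in 8 of 9 WT epiblasts, and E7.5 WT epiblast 3 held 1.40. Apart from that library the stages did not overlap, and the log2 fold change was 3.81 ± 0.38 (SE; edgeR, adjusted p = 3.69e-06). *Apln* showed a wider spread at E6.5, from 1.05 to 40.3 CPM with a median of 20.6, and stood between 25.0 and 78.4 with a median of 41.2 in the E7.5 WT epiblasts. The stages overlap, and *Apln* did not pass the test (log2 fold change 1.25 ± 0.56, edgeR adjusted p = 0.114). The 2 E5.5 WT epiblasts held 3.46 and 2.21 CPM of *Apln*, between the lowest and the median E6.5 WT value.

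The receptor *Aplnr* went from 0.103 to 4.69 CPM (median 1.24) in E6.5 WT to 66.8 to 113 CPM in 8 of 9 E7.5 WT epiblasts, with 4.09 in the library that stands apart. Its log2 fold change was 5.31 ± 0.72 (edgeR, adjusted p = 7.39e-05). *Kdr* was at 0 counts in both E5.5 WT epiblasts and in 7 of the 9 E6.5 WT, and at 0.514 and 1.51 CPM in the other two. At E7.5 *Kdr* read 20.4, 17.7, 0.517, 108, 104, 78.6, 58.4, 78.2 and 16.9 CPM in WT epiblasts 1 to 9, so that 8 of 9 lay above every E6.5 value; the log2 fold change was 8.04 ± 1.19 (edgeR, adjusted p = 0.000138). *Flt1*, the decoy receptor, followed another course: it was already at 11.97 to 41.2 CPM (median 22.1) in E6.5 WT and at 7.52 to 41.1 (median 19.96) at E7.5, and the log2 fold change between them was -0.17 ± 0.30 (edgeR, adjusted p = 0.739).

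Among the transcription factor genes, *Lmo2* rose by 3.01 ± 0.74 (edgeR, adjusted p = 0.00521) and *Gata2* by 2.90 ± 0.76 (adjusted p = 0.00805) on the log2 scale. *Lmo2* read 0 to 2.19 CPM in E6.5 WT and 0.336 to 22.7 with a median of 9.66 at E7.5, and *Gata2* 0.204 to 5.39 at E6.5 and 0 to 25.3 with a median of 8.78 at E7.5. In both genes the lowest E7.5 value was that of WT epiblast 3. *Tal1* (0.233 to 4.97 CPM at E6.5, 0.362 to 19.4 at E7.5) had a log2 fold change of 1.91 ± 0.70 and an adjusted p of 0.0518 in edgeR, and *Etv2* (0 to 3.08, then 0.580 to 9.85) one of 1.90 ± 0.77 with an adjusted p of 0.0785. DESeq2, a second count test, called both as well, which made 7 of 10, and leaving out the libraries that stand apart gave the same count of 7. These settings also called more genes of every kind, 2331 of 30539 and 2168 of 17295, against 1518 of 17191 in the edgeR test above. *Tal1* also passed on leaving out E6.5 WT epiblast 3 or any of E7.5 WT epiblasts 1, 2, 3 and 9, and its adjusted p ran from 0.0151 to 0.258 over the alternatives. *Pecam1* was at 0.264 to 5.21 CPM at E6.5 and 0.242 to 5.92 at E7.5, with a log2 fold change of 0.34 ± 0.62 (edgeR, adjusted p = 0.742).

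**Figure D1:**
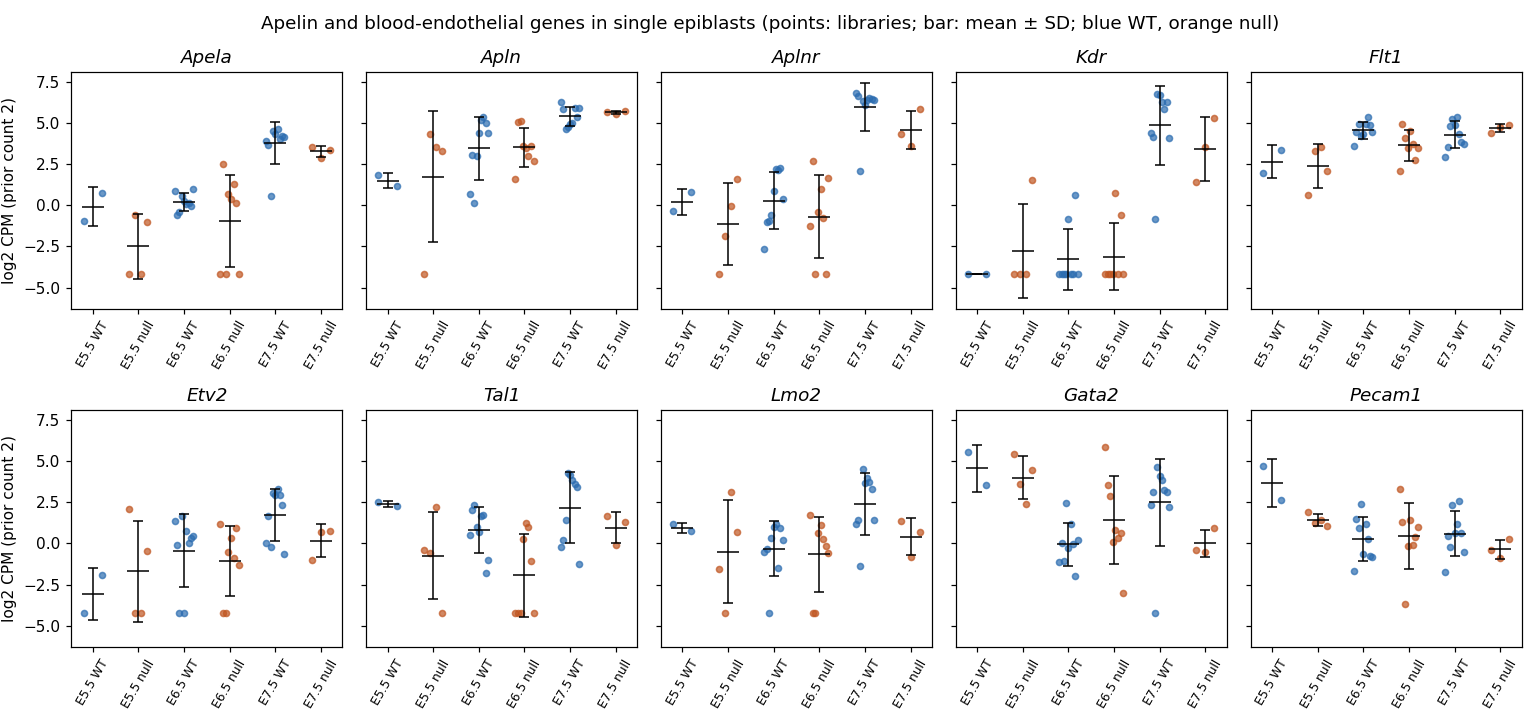
Levels of the 10 genes in the 35 epiblast libraries, as log2 CPM with a prior count of 2, by stage and genotype; points are libraries, bars the mean and SD. *Apela*, *Aplnr* and *Kdr* of E7.5 WT stand above E6.5 WT except for 1 library, WT epiblast 3, while *Flt1* stays at similar heights.

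Per kilobase of exon, a scale on which genes can be set beside each other, the order of mean levels in the 9 E7.5 WT epiblasts began with *Aplnr* at 21.4 ± 8.33 CPM per kb (SD), *Apela* at 16.5 ± 6.92 and *Apln* at 14.4 ± 5.95. The means of these 3 lie within 1 SD of their neighbours. *Kdr* followed at 5.93 ± 4.51, *Etv2* at 4.65 ± 3.45 and *Lmo2* at 4.16 ± 3.50, again within their spread of each other. *Tal1* (2.03 ± 1.77), *Gata2* (1.92 ± 1.40) and *Flt1* (1.67 ± 0.893) formed the next step, and *Pecam1* came last at 0.342 ± 0.318. In E6.5 WT the order was led by *Apln* (5.95 ± 4.74) and *Flt1* (1.85 ± 0.641), and *Kdr* was the lowest at 0.0250 ± 0.0567.

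The E7.5 WT epiblasts were not alike. WT epiblasts 4 to 8 held the 5 highest values of 6 of the 10 genes, *Kdr*, *Etv2*, *Tal1*, *Lmo2*, *Gata2* and *Pecam1*. For *Tal1* they read 19.4, 18.1, 14.6, 12.1 and 10.8 CPM, and epiblasts 1, 2, 3 and 9 read 0.794, 1.09, 2.66 and 0.362. A gap was also present for *Kdr*, where the fifth value was 58.4 CPM and the sixth 20.4, and it was narrow for *Gata2*, where they were 8.78 and 8.63. The apelin genes did not follow this order: WT epiblasts 1 and 2 held the highest *Aplnr* values, 113 and 98.4 CPM, and epiblast 1 the highest *Apln* value, 78.4 CPM. The same libraries 4 to 8 held the 5 lowest *Pou5f1* values, 156 to 311 CPM against 343 to 608 in the other four. The summed level of 6 markers of extraembryonic mesoderm and allantois was 402, 282, 343, 366 and 132 CPM in epiblasts 4 to 8, and 81.0, 78.4, 9.52 and 49.7 in epiblasts 1, 2, 3 and 9. That list is not specific to this tissue. It summed to 1007, 849 and 701 CPM in E5.5 null 1, E5.5 WT 1 and E6.5 null 1. Those libraries held 950, 296 and 708 CPM of extraembryonic ectoderm markers. Visceral endoderm markers summed to 1542 to 4133 CPM in epiblasts 4 to 8 and to 390 to 1490 in the others. Part of the tissue that carries blood and endothelial progenitors is extraembryonic mesoderm, and the part of these markers in the result was not tested.

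**Figure D2:**
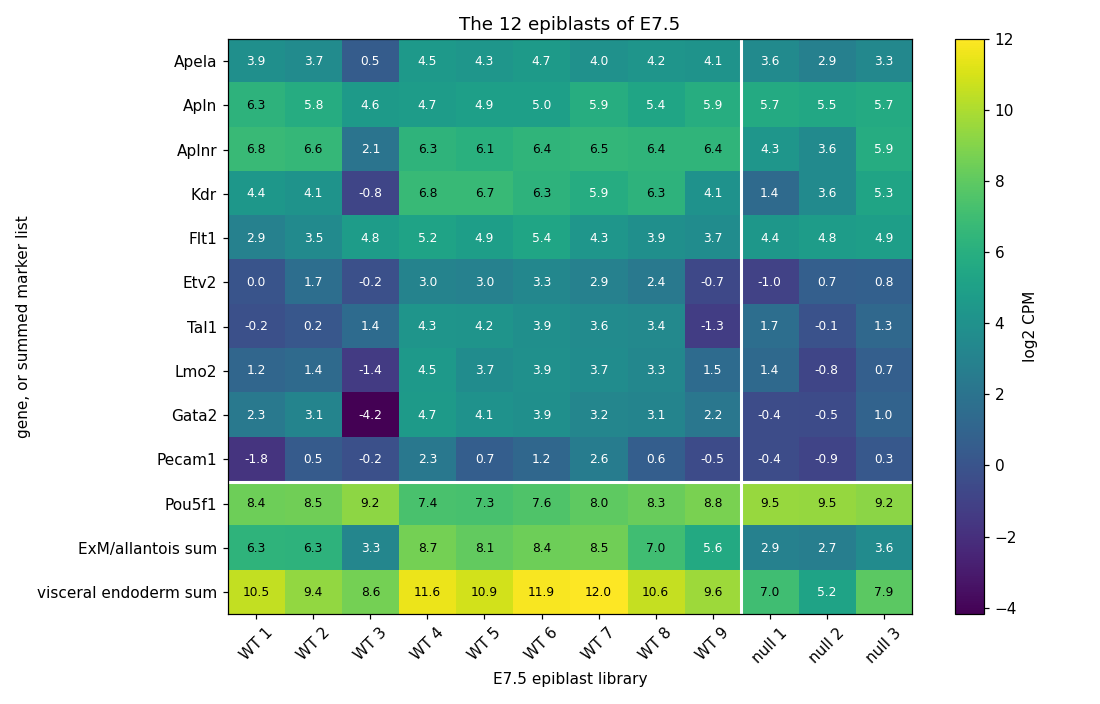
The 12 epiblast libraries of E7.5 as columns, with log2 CPM written in each cell for the 10 genes, *Pou5f1*, and the log2 of the summed CPM of markers of extraembryonic mesoderm with allantois (ExM) and of visceral endoderm. WT epiblasts 4 to 8 are high in *Kdr*, *Etv2*, *Tal1*, *Lmo2* and *Gata2* and low in *Pou5f1*; null epiblasts 1 to 3 show *Apln* at 5.5 to 5.7 beside lower *Gata2* and *Lmo2*.

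Null epiblasts of E7.5 had *Apln* levels inside the WT range, *Apela* levels below 8 of 9 WT epiblasts and, on average, fewer transcripts of the receptor *Aplnr* and of the progenitor factors, but none of the 10 genes passed the call against E7.5 WT. Over all 19680 genes 1.17% were called, 16 higher and 215 lower. The median log2 fold change of the 10 genes, null minus WT, was -1.49, beside -0.020 for all genes, and 8 of 10 had a lower mean in the null.

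*Apln* read 51.4, 46.1 and 52.5 CPM in the 3 null epiblasts, inside the WT range, with a log2 fold change of 0.17 ± 0.32 (edgeR, adjusted p = 0.863). *Apela* read 11.7, 7.37 and 10.1 CPM, below the 8 other WT epiblasts and above WT epiblast 3, with a log2 fold change of -0.74 ± 0.54 (adjusted p = 0.524). Without WT epiblast 3 this became -0.90 ± 0.23 (adjusted p = 0.0143), short of the fold that a call required, and the adjusted p ran up to 0.975 over the alternatives.

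*Aplnr* read 20.01, 11.9 and 57.7 CPM in the null epiblasts, each below 8 of 9 WT values. Its log2 fold change was -1.38 ± 0.76 (edgeR, adjusted p = 0.368), and -1.54 ± 0.41 without WT epiblast 3 (adjusted p = 0.0303, the lowest of the alternatives, of which the highest gave 0.957), where it passed. *Kdr* differed among the nulls as much as among the WT, at 2.61, 11.7 and 39.2 CPM, and null epiblast 3 exceeded 4 of the 9 WT (log2 fold change -1.55 ± 1.22, edgeR adjusted p = 0.577). *Flt1* at 21.0, 27.3 and 29.8 CPM lay inside the WT range (0.24 ± 0.43, adjusted p = 0.859).

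The widest differences were in the transcription factor genes. *Gata2* read 0.701, 0.646 and 1.89 CPM in the nulls and 4.57 to 25.3 in the 8 WT epiblasts other than epiblast 3, in which it was at 0; the log2 fold change was -3.22 ± 1.22 (edgeR, adjusted p = 0.167). Without that library it was -3.39 ± 0.60 (adjusted p = 0.0015) and passed, and DESeq2 also called it with all libraries (-3.24 ± 1.08, adjusted p = 0.0312). Over the alternatives its adjusted p ran from 0.0015 to 0.957. *Lmo2* read 2.50, 0.511 and 1.55 CPM in the nulls, with a log2 fold change of -2.53 ± 1.08 (edgeR, adjusted p = 0.218), and DESeq2 called it (-2.55 ± 0.81, adjusted p = 0.0214, the lowest of the alternatives, of which the highest gave 1). *Etv2* (0.451, 1.59 and 1.65 CPM; -1.95 ± 0.87, edgeR adjusted p = 0.231) and *Tal1* (3.16, 0.888 and 2.38 CPM; -2.02 ± 1.17, adjusted p = 0.393) did not pass, and in both genes the null range takes in WT values. *Pecam1* was at 0.701, 0.484 and 1.14 CPM (-1.42 ± 0.83, adjusted p = 0.389).

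Markers of other tissues also differed at E7.5. The 10 visceral endoderm markers summed to 36.3 to 243 CPM in the nulls and 390 to 4133 in WT, and 2 of them were called lower, *Afp* (-3.67 ± 0.75) and *Trf* (-5.44 ± 1.22), which encode alpha-fetoprotein and transferrin. The 6 markers of extraembryonic mesoderm and allantois, of which 4 rose over 3 counts in any null and all 6 in WT, summed to 6.70 to 12.5 CPM in the nulls and 9.52 to 402 in WT, with *Pitx1* called lower (-6.26 ± 1.25). The 8 extraembryonic ectoderm markers summed to 4.96 to 15.4 CPM and 3.70 to 105, and the 6 of maternal blood and decidua to 2.37 to 26.4 and 0.220 to 14.9. The extraembryonic ectoderm list holds *Cdx2*, which is also a posterior factor of the embryo, so its sum need not come from that tissue alone. The part of these tissues in the differences of the 10 genes was not tested.

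Within the null, the receptors and ligands had higher means at E7.5 than at E6.5, but none of the 10 genes passed, where 0.103% of 19460 genes did (20 genes by edgeR, 321 by DESeq2, and 1582 at an unadjusted p under 0.05). *Kdr* was at 0 in 6 of 8 E6.5 nulls and at 0.622 and 1.64 CPM in the rest, and all 3 E7.5 nulls lay above them (log2 fold change 5.97 ± 1.64, edgeR adjusted p = 0.242). *Aplnr* went from 0 to 6.43 CPM (median 0.619) to 11.9 to 57.7, again without overlap (4.17 ± 1.18, adjusted p = 0.260). *Apela* (0 to 5.58, median 1.15, then 7.37 to 11.7; 2.70 ± 1.38, adjusted p = 0.672) and *Apln* (2.97 to 35.05, median 11.7, then 46.1 to 52.5; 1.71 ± 0.55, adjusted p = 0.357) did not overlap either. The transcription factor genes differed less in the fit: *Etv2* by 0.51 ± 1.42, *Lmo2* by 0.33 ± 1.41 and *Tal1* by 1.55 ± 1.69, and *Gata2* had a lower mean at E7.5 (-3.29 ± 1.64, adjusted p = 0.659), with 59.2 CPM in E6.5 null epiblast 1. Without that library the *Gata2* value was -1.70 ± 1.23, and without the E6.5 libraries over 40000000 counts (null and WT 1 to 3) it was -0.037 ± 0.85. All 10 visceral endoderm markers had a lower mean in E7.5 than in E6.5 nulls (median log2 fold change -3.83). So did all 7 extraembryonic ectoderm markers tested (median -3.22), beside -0.013 for all genes, and none was called. The part of these tissues in the differences was not tested.

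Whether the genotype difference itself changed between E6.5 and E7.5 was tested as an interaction over all 35 epiblast libraries. None of the 10 genes passed, where 0.245% of 24126 genes did (59 by edgeR, 516 by DESeq2, and 3239 at an unadjusted p under 0.05). *Gata2* had the most negative term, -6.18 ± 1.85 (edgeR, adjusted p = 0.117), which passed with DESeq2 (adjusted p = 0.000715), without E7.5 WT epiblast 3 (-6.35 ± 1.67, adjusted p = 0.0384) and without all 4 libraries that stand apart (-4.65 ± 1.26, adjusted p = 0.0232), and did not pass in the other alternatives, with adjusted p up to 0.387. Without the E6.5 libraries over 40000000 counts the *Gata2* term was -2.56 ± 1.37 (adjusted p = 0.381).

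**Figure D3:**
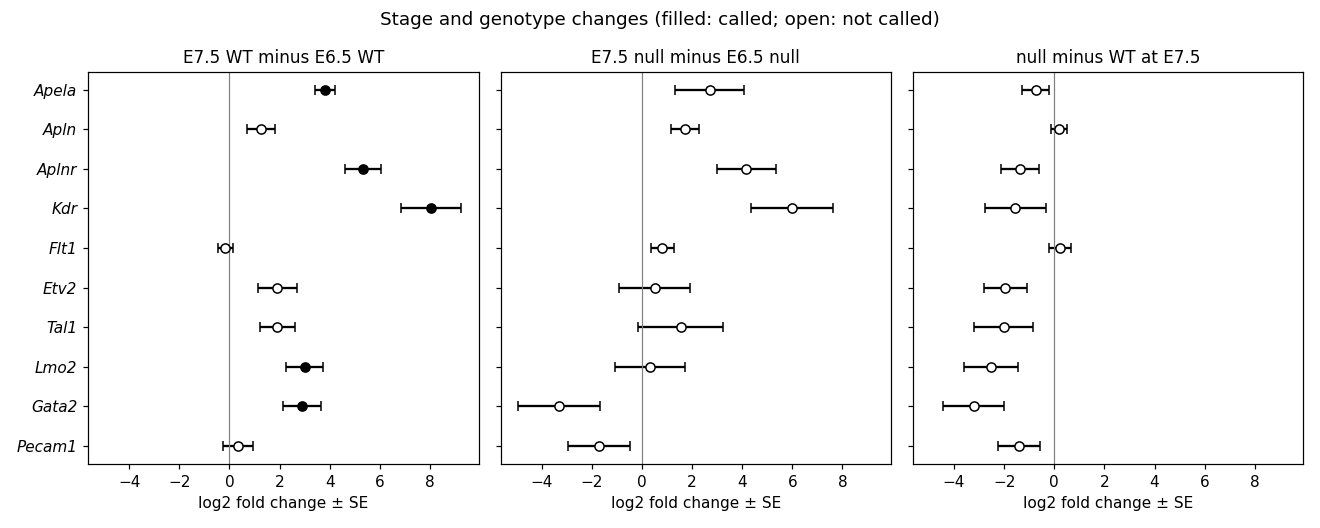
Log2 fold changes with standard errors of the 10 genes from edgeR for stage in WT, stage in the null and genotype at E7.5; filled points passed the call. In WT 5 genes passed, and in the other comparisons none did. The comparisons share libraries, WT of E7.5 in the first and last, null of E7.5 in the second and last.

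Beside E6.5 WT, from which *Apela* was picked, the E7.5 null means were higher by 3.06 for *Apela*, 6.70 for *Kdr*, 4.30 for *Aplnr* and 2.18 for *Apln* in mean log2 CPM. *Etv2*, *Lmo2*, *Tal1*, *Flt1* and *Gata2* differed by 0.069 to 0.72 and *Pecam1* by -0.60. These values are given as a description, without a test.

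At E5.5 and E6.5 no gene of any kind was called between null and WT by edgeR (0% of 18690 and 0% of 17095 genes), with 467 and 1414 genes at an unadjusted p under 0.05 and 31 and 30 called by DESeq2, none of them among the 10. The deleted gene *Stat3* was itself not called by edgeR, at -1.41 ± 0.36 (adjusted p = 0.999) and -1.60 ± 0.39 (adjusted p = 0.334). The absence of calls at these stages is therefore no measure of how alike the genotypes were. *Kdr* was not tested at either stage because its counts were too low. At E6.5 *Flt1* read 4.21 to 30.9 CPM (median 12.1) in the nulls and 11.97 to 41.2 (median 22.1) in WT, overlapping, with a log2 fold change of -0.77 ± 0.32 (edgeR, adjusted p = 0.540). *Tal1* was at 0 in 4 of 8 nulls and in none of the WT (-1.69 ± 1.11, adjusted p = 0.780). The *Tal1* log2 fold change was -0.62 without the E6.5 libraries over 40000000 counts and -10.7 in those libraries alone. *Gata2* was at 59.2, 11.6 and 7.35 CPM in null epiblasts 1 to 3 and at most 1.67 in the other 5, against 0.204 to 5.39 in WT. Its log2 fold change of 2.95 ± 0.95 (adjusted p = 0.424) dropped to 1.35 ± 0.81 without null epiblast 1 and was -0.68 ± 0.75 without the E6.5 libraries over 40000000 counts, which are null 1 to 3 and WT 1 to 3. All 10 visceral endoderm markers had a higher mean in the null at E6.5 (median log2 fold change 1.23). So did all 5 extraembryonic ectoderm markers tested (median 3.50), beside -0.0086 for all genes. The part of these tissues in the differences was not tested. At E5.5 *Pecam1* read 3.78, 2.35, 2.68 and 2.01 CPM in the nulls and 25.9 and 6.24 in WT, without overlap (-2.58 ± 0.60, edgeR adjusted p = 0.999), and the log2 fold change was -1.22 ± 0.76 without WT epiblast 1 and -3.26 ± 0.53 without WT epiblast 2. *Apln* at E5.5 read 0 to 19.8 CPM in the nulls and 2.21 and 3.46 in WT (log2 fold change 1.85 ± 1.83). Without null epiblast 1, which held the 0, it was 2.26 ± 0.50, and neither fit called it.

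From E5.5 to E6.5 in WT, 3 of 10 genes were called, where 5.15% of 20763 genes were. *Flt1* rose by 1.86 ± 0.46 (3.81 and 10.1 CPM at E5.5; edgeR, adjusted p = 0.0233), and *Gata2* fell by 4.39 ± 0.80 (47.4 and 11.7 CPM; adjusted p = 0.00608) and *Pecam1* by 3.24 ± 0.78 (adjusted p = 0.0195) on the log2 scale. Only 2 libraries stand for E5.5 WT, and all 3 calls were lost without the first of them, which held 296 CPM of extraembryonic ectoderm markers against 24.7 in the second and 4.18 to 16.9 in E6.5 WT. *Gata2* is also made by trophoblast, and the part of that tissue in the result was not tested. *Flt1* was also not called with sample quality weights (limma, adjusted p = 0.0782) or in a fit of all 35 epiblast libraries (adjusted p = 0.104). Visceral endoderm markers summed to 5287 and 6560 CPM in the E5.5 WT epiblasts against a median of 158 in E6.5 WT, and 9 of the 10 had a lower mean at E6.5, with none called; their part in the 3 calls was not tested.

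In EpiSC lines 2 of 9 genes tested were called, both lower in the null, where 0.106% of 20736 genes were called in either direction and 0.0627% lower. *Apela* read 9.02 and 11.1 CPM in null lines 2 and 6 and 36.0 and 30.6 in WT lines 8 and 13, a log2 fold change of -1.72 ± 0.15 (edgeR, adjusted p = 0.0171). *Flt1* read 15.3 and 17.2 CPM against 36.2 and 38.7, or -1.20 ± 0.11 (adjusted p = 0.0189). The groups do not overlap for either gene. Leaving out null line 2 kept *Apela* (-1.57) and lost *Flt1* (-1.11, adjusted p = 0.0681, the highest of the alternatives, of which DESeq2 gave the lowest, 1.28e-15).

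The receptors had lower means in the null lines without passing. *Kdr* read 0.501 and 0.932 CPM against 2.12 and 4.08 (-2.10 ± 0.46, edgeR adjusted p = 0.216), and DESeq2 called it (adjusted p = 0.0017), while other alternatives gave up to 0.628. *Aplnr* was under 1 CPM in every line (0.0940 and 0.379 against 0.940 and 0.598; -1.65 ± 0.66, adjusted p = 0.530), and *Apln* read 1.55 and 3.08 against 6.11 and 3.27 (-1.01 ± 0.44, adjusted p = 0.597). *Lmo2* stood at 3.20 and 3.75 against 3.54 and 2.57 CPM. *Tal1*, *Gata2* and *Pecam1* were under 0.5 CPM in every line, and *Etv2*, which was too low to test, reached at most 0.0698. *Stat3* was counted at 3.15 and 3.50 CPM in the null lines and 18.2 and 22.8 in WT (-2.62 ± 0.17, adjusted p = 0.00706). Each group is 2 lines, and the lines were prepared with another kit than the epiblasts, so levels were not compared across them. Of the marker lists, all 9 nascent mesoderm genes tested had a lower mean in the null lines (median log2 fold change -1.09), as did all 4 genes tested of extraembryonic mesoderm and allantois (median -1.33), beside -0.010 for all genes, and none of them was called. The extraembryonic mesoderm list, which is not specific to that tissue, summed to 26.7 and 36.9 CPM in null lines 2 and 6. It summed to 63.2 and 169 in WT lines 8 and 13, without overlap. Whether cells of that tissue were present, and their part in the *Apela* and *Flt1* differences, was not tested.

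**Figure D4:**
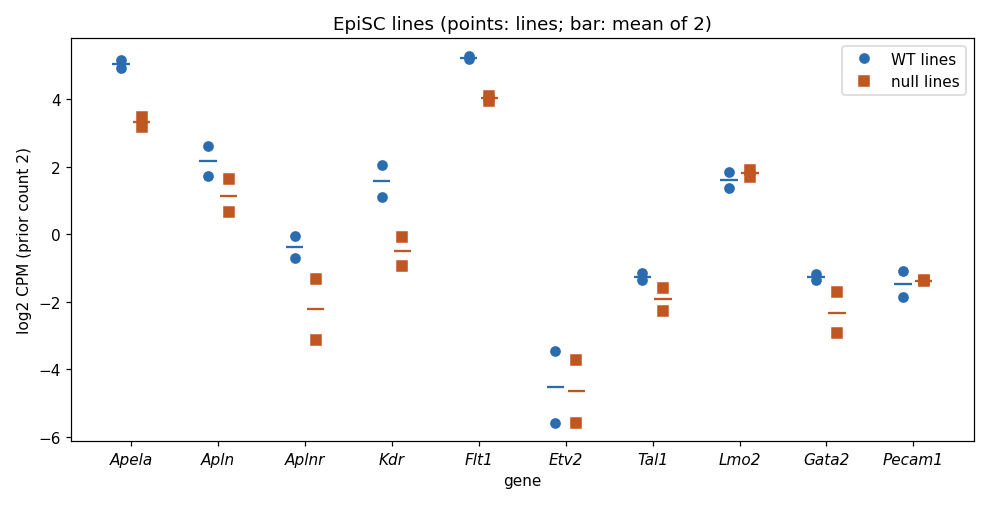
Levels of the 10 genes in the 4 EpiSC lines as log2 CPM with a prior count of 2; each point is a line and each bar the mean of 2 lines. *Apela* and *Flt1*, the called genes, are lower in both null lines than in both WT lines, and *Etv2* lies near the lowest count.

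Other genes of the pathway were read from lists of names. For scale, 5.74% of all 17191 genes tested were called higher in WT from E6.5 to E7.5, and 531 lower. Between null and WT at E7.5, 1.17% of 19680 genes were called. Of 7 VEGF ligands and co-receptors tested, 2 rose in WT from E6.5 to E7.5 and none fell (median log2 fold change 1.17), and 1 was lower in the null at E7.5. That gene was *Nrp1*, neuropilin, which presents VEGF-A to KDR: it stood at 3.15 to 5.76 CPM in the nulls and 13.9 to 80.0 in WT, without overlap (-3.25 ± 0.62, edgeR adjusted p = 0.033). Of 17 endothelial genes 10 were tested by stage, 2 rose and none fell (median 0.76), and of 15 tested by genotype at E7.5, 1 was lower, *Sox17*, an endothelial and endoderm factor (-1.89 ± 0.38, adjusted p = 0.0324), with a median over the list of -2.12 beside -0.020 for all genes. Of 17 blood genes, 9 were tested by stage, of which none rose and 1 fell, and 11 by genotype, of which none passed (median -0.27). *Cdh5*, *Tek* and *Tie1*, defining genes of formed endothelium, reached 6.395, 10.95 and 2.84 CPM at most in the E7.5 epiblasts, and *Klf1*, a defining gene of red cells, 2.04. *Etv2* reached 9.85 CPM. *Cdh5*, *Tek*, *Tie1* and *Klf1* were picked from the lists after their values were seen. *Esam*, *Runx1*, *Gata1* and *Itga2b* of the same lists are not given. Whether such cells were present was not tested and cannot be read from these values. The whole endothelial list summed to 27.6 to 42.4 CPM in E7.5 nulls and 35.7 to 141 in E7.5 WT. The blood list summed to 111 to 124 and 77.0 to 118 CPM. It also summed to 95.4 to 135 CPM in E6.5 WT epiblasts, 76.9 and 101 in the WT EpiSC lines and 77.1 and 109 in the null lines. The blood sum is therefore no measure of blood cells.

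In the nascent mesoderm list, from which these progenitors arise, 6 of 11 genes rose and 1 fell between E6.5 and E7.5 in WT, with a median of 3.92. Of all 17191 genes tested 5.74% rose and 531 fell. *Foxf1* (7.84 ± 1.002, edgeR adjusted p = 3.81e-05) and *Foxc1* (7.06 ± 0.87, adjusted p = 3.12e-05), factors of lateral and paraxial mesoderm, had the smallest p of all listed genes together with *Cdx2* (6.49 ± 0.79, adjusted p = 2.81e-05). *Cdx2* was not in this list but in that of extraembryonic ectoderm, and it is also a posterior factor of the embryo. In the null at E7.5, where 1.17% of all genes were called, 1 of 12 was called, *Msgn1*, a factor of presomitic mesoderm. It was at 0 counts in all 3 nulls and at a mean of 16.1 CPM in WT, at least 199-fold lower against the highest limit of 3 counts per null library. Over the list, 4 genes had a higher mean in the null and 8 a lower one, with a median log2 fold change of -2.50. The 12 genes summed to 525 to 921 CPM in the nulls and 299 to 756 in WT, with overlap. The same sum was 658 and 782 CPM in the E5.5 WT epiblasts, so it is no measure of the amount of mesoderm.

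Of the 8 genes of epiblast identity, 6 fell in WT from E6.5 to E7.5 and none rose (median log2 fold change -1.41), where 531 of all 17191 genes fell. None of the 8 passed between null and WT at E7.5, where the median was 1.28 and all 8 had a higher mean in the null.

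Over the 35 epiblast libraries the genes whose log2 CPM was most like that of *Aplnr*, by Pearson's r, were *Sh3pxd2a* (0.89), *Rab8b* (0.87) and *Atxn7l3b* (0.87). For *Kdr* they were *Lhx5* (0.91), *Nme5* (0.90) and *Noto* (0.90), and for *Etv2* *Gm5464* (0.80), *Gm3788* (0.75) and *Cep55* (0.75). Among the 10 genes, *Aplnr* was most like *Kdr* (0.83) and *Apela* (0.80) and least like *Pecam1* (0.0019), and *Etv2* was most like *Lmo2* (0.59). The libraries share stage, dissection and depth, so these values are a description.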

How the data were processed

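Bulk RNA-seq was read in 35 libraries of single mouse epiblasts and 4 of EpiSC lines. Per the study's methods and the submitters' processing notes, the authors trimmed reads with Trim Galore, aligned them to GRCm38/mm10 with HISAT2 v2.2.1 and made gene counts with StringTie v2.1.4. The deposited values are whole-number counts per gene, not normalized. The annotation release, strand setting and handling of reads with several positions are not given in the sources used here. Groups came from the sample labels.

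The 10 genes and all lists were chosen with earlier results of these data known. Each comparison was fitted on its own groups with edgeR 4.0.16 in R 4.3.3: TMM, filterByExpr (minimum count 10, minimum total 15), robust quasi-likelihood dispersions and a two-sided test, and Benjamini-Hochberg adjusted p-values across the genes tested. The interaction used all 35 libraries. SE is the log2 fold change divided by the square root of F. p-values measure the spread between these epiblasts or lines. Genes named outside the 10 and *Stat3* were list genes called in E7.5 null against WT, the 3 list genes of smallest p by stage, or the 3 most alike by correlation; defining markers named in passing were chosen after their values were seen. Alternatives were DESeq2 1.42.0, RLE size factors, other filters, leaving out genes over 1% of counts, limma 3.58.1 voom with quality weights, shared fits, a replicate block and leaving out libraries. No library duplicated another (highest correlation 0.958). Positions came from the GRCm38 annotation, in which 47224 of 47643 genes were found. The choice of genes named *Gm45886* as a near-identical copy of *Apela*; the annotation places it on the same strand over 297 bases (29.6%) of the *Apela* exons, and it is in neither count table, so how reads there were assigned is not known. Figures were drawn with matplotlib in Python.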

Additional observations from a re-analysis of the deposited data

Results flagged for a closer look

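A value was looked at again where the highest or lowest library of a group of 4 to 10 stood far from the rest by Dixon's criterion on log2 CPM. The chance rate of this criterion, about 1 in 20, is for separate groups of normally spread values. Here the same libraries recur over genes and some groups are mostly at 0, so that rate is no yardstick. Of 40 groups tested, 7 held a library that stood out in this way. In 4 of the 7 it was E7.5 WT epiblast 3, which was the lowest of 9 for *Apela* (1.40 CPM, next 12.5), *Aplnr* (4.09, next 66.8), *Kdr* (0.517, next 16.9) and *Gata2* (0, next 4.57). E5.5 null epiblast 1 had 0 CPM of *Apln* where the next of 4 had 9.80. E5.5 null epiblast 4 had 2.81 CPM of *Kdr* where the other 3 had 0, so that any count there would have been flagged. E6.5 WT epiblast 3 had 0 CPM of *Lmo2* where the next of 9 had 0.302. No gene of the 10 passed the interaction of genotype with stage in edgeR.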

How the results depend on the processing

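The same number of the 10 genes, within 1.5 times, was called under most alternatives. Where none of the 10 was called, a match was 0 against 0, which says little about stability. For E6.5 to E7.5 in WT, where 5 were called, counts of 4 to 7 fell within that margin although the genes differed. With quality weights *Kdr* and *Gata2* were lost and *Etv2* was gained. The alternatives that differed are these. From E5.5 to E6.5 in WT, 0 were called with replicate number as a block and 0 to 3 with 1 library left out, 0 without E5.5 WT epiblast 1. Between E6.5 and E7.5 nulls, 4 were called with quality weights (*Apela*, *Apln*, *Aplnr*, *Flt1*) and 1 (*Apln*) without the E6.5 libraries over 40000000 counts. For null against WT at E7.5 the count was 2 with DESeq2, 1 with quality weights (*Aplnr*), 2 without the libraries that stand apart, and 0 to 2 with 1 library left out. For the interaction it was 1 with DESeq2, 1 with quality weights (*Flt1*, 1.51, adjusted p = 0.026 in limma), 1 without the libraries that stand apart, and 0 to 1 with an E7.5 library left out. In EpiSCs it was 1 to 2 with 1 line left out, and 3 with DESeq2. DESeq2 and quality weights also called more genes of every kind in these comparisons. DESeq2 called 1027 against 231 for null against WT at E7.5, 516 against 59 for the interaction and 214 against 22 in EpiSCs. Quality weights called 437 against 20 between the nulls, 1198 against 231 for null against WT at E7.5 and 1488 against 59 for the interaction. The cause of these shifts was not tested.

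Of 51 log2 fold changes of single genes that were followed through the alternatives, 7 turned direction. The other values of the 10 genes, none of them called, were not followed, and some of them turned too, such as *Lmo2* between E6.5 and E7.5 nulls (-0.23 without E7.5 null epiblast 1) and *Aplnr* from E5.5 to E6.5 in WT (-2.35 with the replicate block). *Gata2*, null minus WT at E6.5, was -0.68 without the libraries over 40000000 counts, and *Pecam1* from E6.5 to E7.5 in WT ran from -0.022 to 0.77 with 1 library left out. With the replicate block, null minus WT at E7.5 became 0.48 for *Apela*, 0.042 for *Kdr*, 0.50 for *Tal1*, 0.049 for *Lmo2* and 0.21 for *Pecam1*, with 0 genes called in all. What a shared sample number stands for is not given by the labels. Between null and WT, deviations of same-numbered samples correlated over 0.1 in 0 of 3 pairs at E7.5. At E6.5 they did in 4 of 8 pairs (highest 0.242), and at E5.5 in 1 of 2 (0.224). By stage they did in 1 of 3 pairs of nulls and in 0 of the WT pairs. At E6.5, numbers 1 to 3 are also the libraries over 40000000 counts in both genotypes. Over all genes, calls ranged from 0 to 1198 for null against WT at E7.5 (231 in the report; 1105 without WT epiblast 3 and 0 without null epiblast 2), from 101 to 2698 for E6.5 against E5.5 WT (1070), from 1363 to 2805 for E7.5 against E6.5 WT (1518), from 0 to 437 for the nulls by stage (20), from 0 to 1488 for the interaction (59), from 16 to 214 in EpiSCs (22), and up to 31 at E5.5 and 92 at E6.5 (0 in both).

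The lone library left in an arm was assumed to vary like the others. Leaving out libraries that stand apart, and the deep E6.5 libraries alone, were chosen after the data were seen. Adding *Gm45886* counts to *Apela* was not run, because no counts of *Gm45886* were at hand. E5.5 WT rests on 2 epiblasts, E7.5 null on 3 and each EpiSC genotype on 2 lines, and the filter on low counts left out *Kdr* between null and WT at E5.5 and E6.5 and *Etv2* in EpiSCs. Without that filter none of these 3 was called (adjusted p = 0.939, 0.979 and 0.987).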
